A study of Mus musculus with 24 samples.

Results

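The clustered protocadherins are 58 genes of mouse chromosome 18, arranged as an alpha, a beta and a gamma cluster, and their methylation was compared here between liver, brain and heart. Members were taken by gene name. For each gene the measured region was its first exon plus the 2000 bp upstream of it, in the mm10 build with RefSeq gene models. Methylation had been determined by enhanced reduced representation bisulphite sequencing (RRBS), which cuts genomic DNA with restriction enzymes and reads the methylation of CpGs near the cut sites. The deposited values are methylation levels of tiles of 100 bp, given as fractions and printed here as percentages. Of the 58 genes, 55 had at least 1 tile in all 3 tissue tables, against 15020 of 20022 autosomal genes with a model. Apart from the members, only protein-coding genes were counted. These 55 genes held 445 of the 757807 tiles common to the tables, and a further 6 tiles lay in the constant exons. No tile of Pcdha6, Pcdhb4 or Pcdhga6 was in any of the tables.

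All libraries came from untreated C57Bl/6J mice, an inbred strain, aged 24 weeks. Liver was represented by 12 libraries (6 males and 6 females), and brain and heart by 6 libraries each (3 males and 3 females). The DNA came from whole pieces of tissue (a rostral slice of brain, the apex of the heart and part of the left liver lobe), so that each level is a mean over the cell types present, and a change in cell composition cannot be told apart from a change within cells. Per the study's methods, brain and heart came from some of the mice used for liver. The columns of levels carry no mouse number, so the libraries could be assigned to a tissue but neither to a gender nor to a mouse. The p-values below treat the libraries as independent. Each tissue was filtered for coverage in a table of its own, and a difference between tissues cannot be told apart from one between these tables.

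Each alpha and gamma protocadherin messenger RNA joins 1 variable first exon, which has its own promoter and encodes the whole extracellular part, the membrane span and a short cytoplasmic stretch, to a set of constant exons that encode a shared cytoplasmic tail. The beta genes each consist of a single exon and have no constant exons. In neurons, a promoter is chosen from the alpha, beta and gamma genes in each cell, in part at random, under CTCF and cohesin, and DNA methylation of the first exons and promoters is known to accompany silent genes. The chosen proteins form the surface code by which a neuron tells its own branches from those of other neurons. The 5 C type genes (Pcdhac1, Pcdhac2, Pcdhgc3, Pcdhgc4 and Pcdhgc5), which sit at the downstream ends of the alpha and gamma clusters, are known to be expressed more uniformly than the others. The alpha group below holds 11 measured genes with 56 tiles, the beta group 21 genes with 130 tiles, the gamma A and B group 18 genes with 187 tiles, and the C types 5 genes with 72 tiles.

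Over all tiles, the mean level of a library lay between 64.8 and 66.1% in liver, 63.7 and 66.4% in brain, and 59.5 and 60.3% in heart. Tissue markers were checked at the same kind of region. All 3 measured hepatocyte genes (Apob, Fgb and Hnf4a) were lowest in liver, at 17.1 to 25.4%, against 60.3 to 91.1% in the other tissues. Of 6 measured heart muscle genes, Tnni3, Actc1 and Myl3 were lowest in heart, at 51.4 to 64.5% against 78.0 to 90.2%. The others were lowest in brain. Myh7 had 26.3% in brain, 41.15% in heart and 57.1% in liver. Nkx2-5 and Tbx5 were highest in heart, with 6.27% and 16.85% against 3.98% and 10.4% in brain. In brain, the neuronal gene Camk2a had 9.1% against 23.1% in liver and 30.0% in heart, but 0 of 7 measured neuronal and 0 of 6 glial genes were called by limma, at the thresholds given below, between brain and liver (5 and 6 at an unadjusted p under 0.05). The neuronal gene Stmn2 went the other way, with 42.0% in brain against 28.0% in liver and 20.5% in heart. Past 10 points between brain and liver were 1 neuronal gene higher in brain (Stmn2) and 1 lower (Camk2a). Of the glial genes, 0 were higher in brain past 10 points and 1 was lower. This was Mog, with 75.3% in brain against 89.2% in liver and 86.0% in heart. Under 10 points, Mbp (27.6% against 21.1% in liver) and Olig1 (13.4% against 11.1%) were higher in brain. Gfap, Slc1a2 and Olig2 were lower in brain than in liver. The neuronal gene Rbfox3 was lowest in heart, at 47.2% against 71.1% in brain and 79.1% in liver. Of 4 measured endothelial genes, Pecam1, Tie1 and Tek were also lower in heart. The other, Cdh5, had 41.8% in liver, 46.15% in brain and 40.1% in heart. The 1 measured leukocyte gene, Coro1a, had 11.6% in liver, 2.4% in brain and 5.7% in heart. The part of cell composition in the results below was not tested.

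Protocadherin tiles were mostly neither methylated nor unmethylated. Of the 445 tiles, 60.2% had a mean level between 20 and 80% in all 3 tissues, against 19.8% of all tiles. A share of 12.1% lay under 20% in all 3 tissues and 8.31% above 80%, against 15.8% and 33.1% of all tiles. Protocadherin tiles held more CpGs, with a mean of 4.62 against 3.40. Among tiles with 5 or more CpGs, which are under 20% in all 3 tissues in 55.0% of cases genome-wide, the share at intermediate levels was 60.3% of 204 protocadherin tiles and 6.81% of 156053 tiles. The alpha (67.9%), beta (69.2%) and gamma A and B tiles (62.0%) shared this feature. The C type tiles did not to the same extent, with 33.3% at intermediate levels and 54.2% under 20%.

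**Figure D1:**
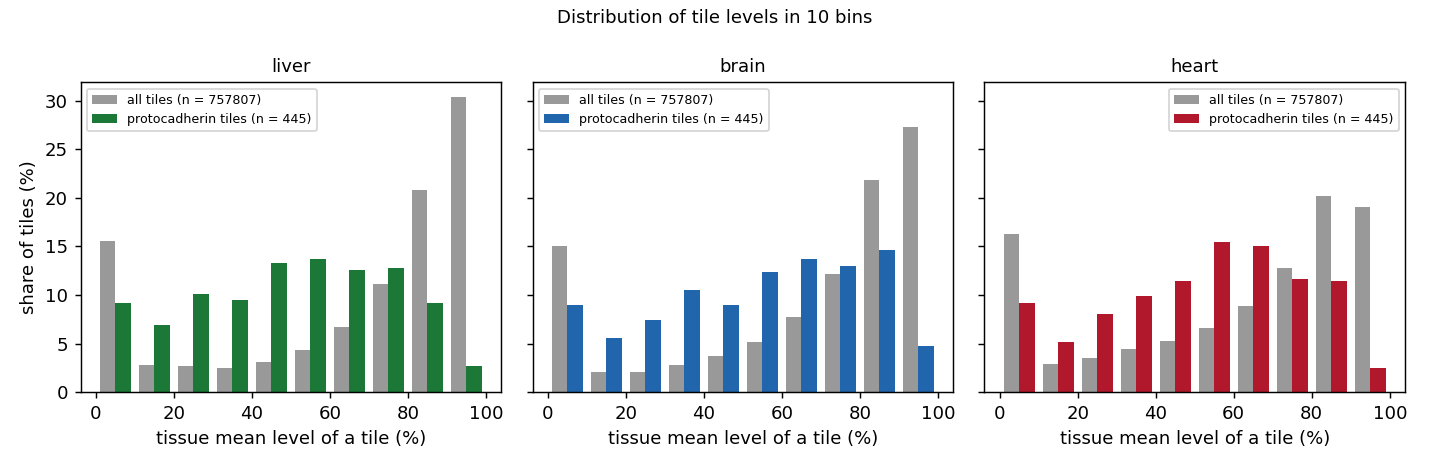
Share of tiles (vertical axis, percent of tiles) in bins of 10 percentage points of the tissue mean methylation level (horizontal axis, %), for the 445 protocadherin tiles (coloured) and all 757807 tiles (grey) in liver, brain and heart. All tiles pile up at both ends of the scale, whereas protocadherin tiles fill the middle.

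At these intermediate levels the spread between libraries of a tissue was compared with that of other tiles. For protocadherin tiles at 20 to 80%, the median SD between libraries was 6.89 percentage points in liver (7.46 for all tiles at such levels), 5.24 in brain (8.36) and 5.19 in heart (6.35). Among tiles with 5 or more CpGs the medians were 5.95 points in liver (6.17 for all), 4.61 in brain (7.33) and 4.53 in heart (5.13). These medians are given without a test, since read depth, which also sets this spread, is unknown.

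Levels followed the position in the first exon. In the gamma A and B genes, the first 500 bp had 24.5% ± 1.71 methylation in liver, 27.2% ± 0.965 in brain and 29.6% ± 1.03 in heart (SD over 12, 6 and 6 libraries; 40 tiles of 14 genes). Between 1000 and 1500 bp from the start, in the part of the exon that encodes the extracellular cadherin repeats, the levels were 61.3% ± 1.80, 69.0% ± 1.05 and 72.2% ± 1.08 (46 tiles of 18 genes). Between 1500 and 2000 bp, where the gamma tiles held a mean of 8.11 CpGs, the levels were 45.3% ± 2.11, 52.4% ± 2.01 and 57.8% ± 0.574. The middle of the exon was higher than its start in each tissue in all 14 gamma A and B genes with tiles in both places, by a median of 41.7 points in liver, 44.8 in brain and 45.4 in heart.

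The alpha and beta genes showed the same shape with a higher floor. In liver, the alpha level was 41.3% ± 4.46 in the first 500 bp and 77.5% ± 3.02 between 1000 and 1500 bp, and the beta levels were 45.5% ± 2.08 and 77.1% ± 1.65. Only 2 alpha and 4 beta genes had tiles in both places, and in all of them the middle was higher in each tissue. Over the 500 bp before the start, 2 C type genes with 5 tiles were close to unmethylated. These tiles had 3.61% ± 1.69 in liver, 1.41% ± 0.195 in brain and 2.14% ± 0.621 in heart. In the first 500 bp after the start, the C type genes had 13.3% ± 1.09, 6.89% ± 1.17 and 11.8% ± 0.948 (22 tiles of 5 genes). Between 1500 and 2000 bp after the start their levels were 47.8% ± 2.57, 54.3% ± 2.84 and 48.3% ± 2.70.

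**Figure D2:**
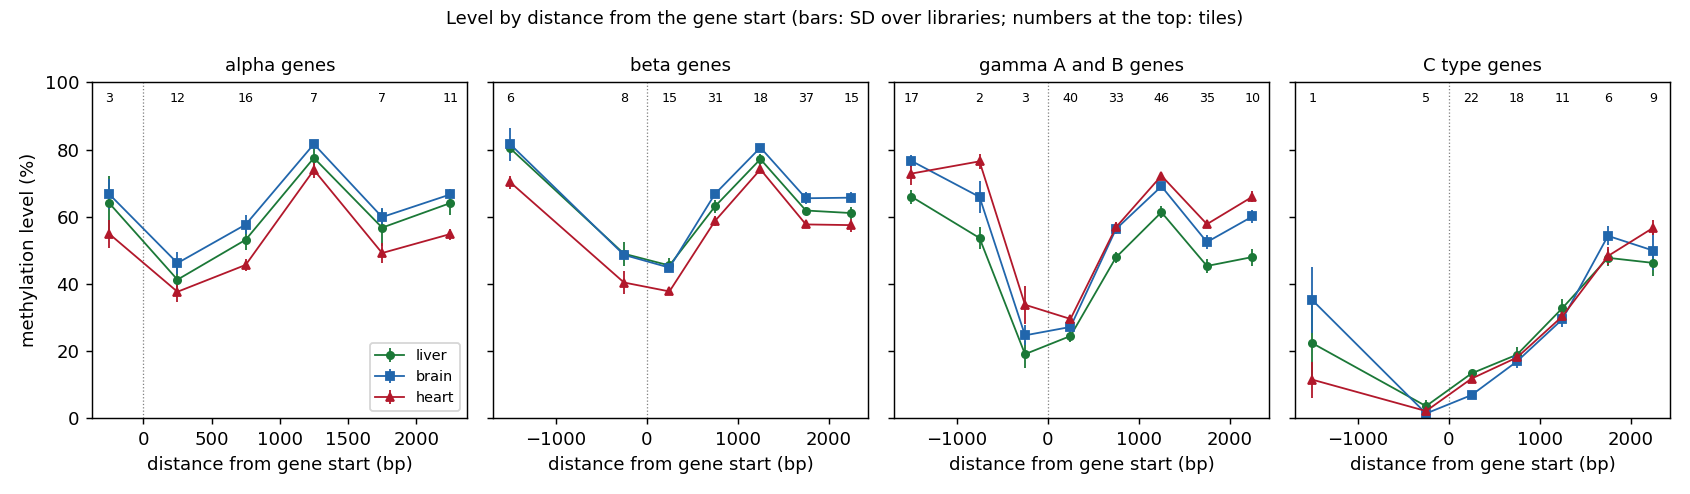
Mean methylation level (vertical axis, %) of tiles by distance from the gene start (horizontal axis, bp, in bins of 500 bp; the points left of -1000 pool 1000 bp and those right of 2000 pool the rest of the exon) for alpha, beta, gamma A and B and C type genes. Error bars are the SD over 12 liver, 6 brain and 6 heart libraries, and the numbers at the top are tiles. Each group is lowest near its start, and the C types are lowest of all.

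Across each cluster as a whole, the order of the tissues differed between the clusters. The alpha genes had 60.7% ± 1.86 in brain, 56.8% ± 2.94 in liver and 50.2% ± 1.71 in heart. The beta genes had 65.2% ± 1.03 in brain, 62.3% ± 0.848 in liver and 57.4% ± 0.639 in heart. The gamma A and B genes had the highest level in heart, with 56.8% ± 0.850, then 54.2% ± 0.975 in brain and 47.0% ± 1.32 in liver. Heart was also the lowest tissue over all tiles, with 59.8% against 65.3% in liver and 65.2% in brain. Liver and brain libraries overlapped in the alpha cluster, from 51.6 to 61.7% in liver and from 58.5 to 63.2% in brain. In the gamma A and B group, all 12 liver libraries (44.8 to 48.6%) lay below all brain (53.2 to 55.4%) and heart libraries (55.7 to 58.0%). The C types, as a group, were similar in the tissues, with 24.1% ± 1.43 in liver, 22.2% ± 1.67 in brain and 24.2% ± 0.423 in heart. These cluster levels are descriptions, with no test.

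**Figure D3:**
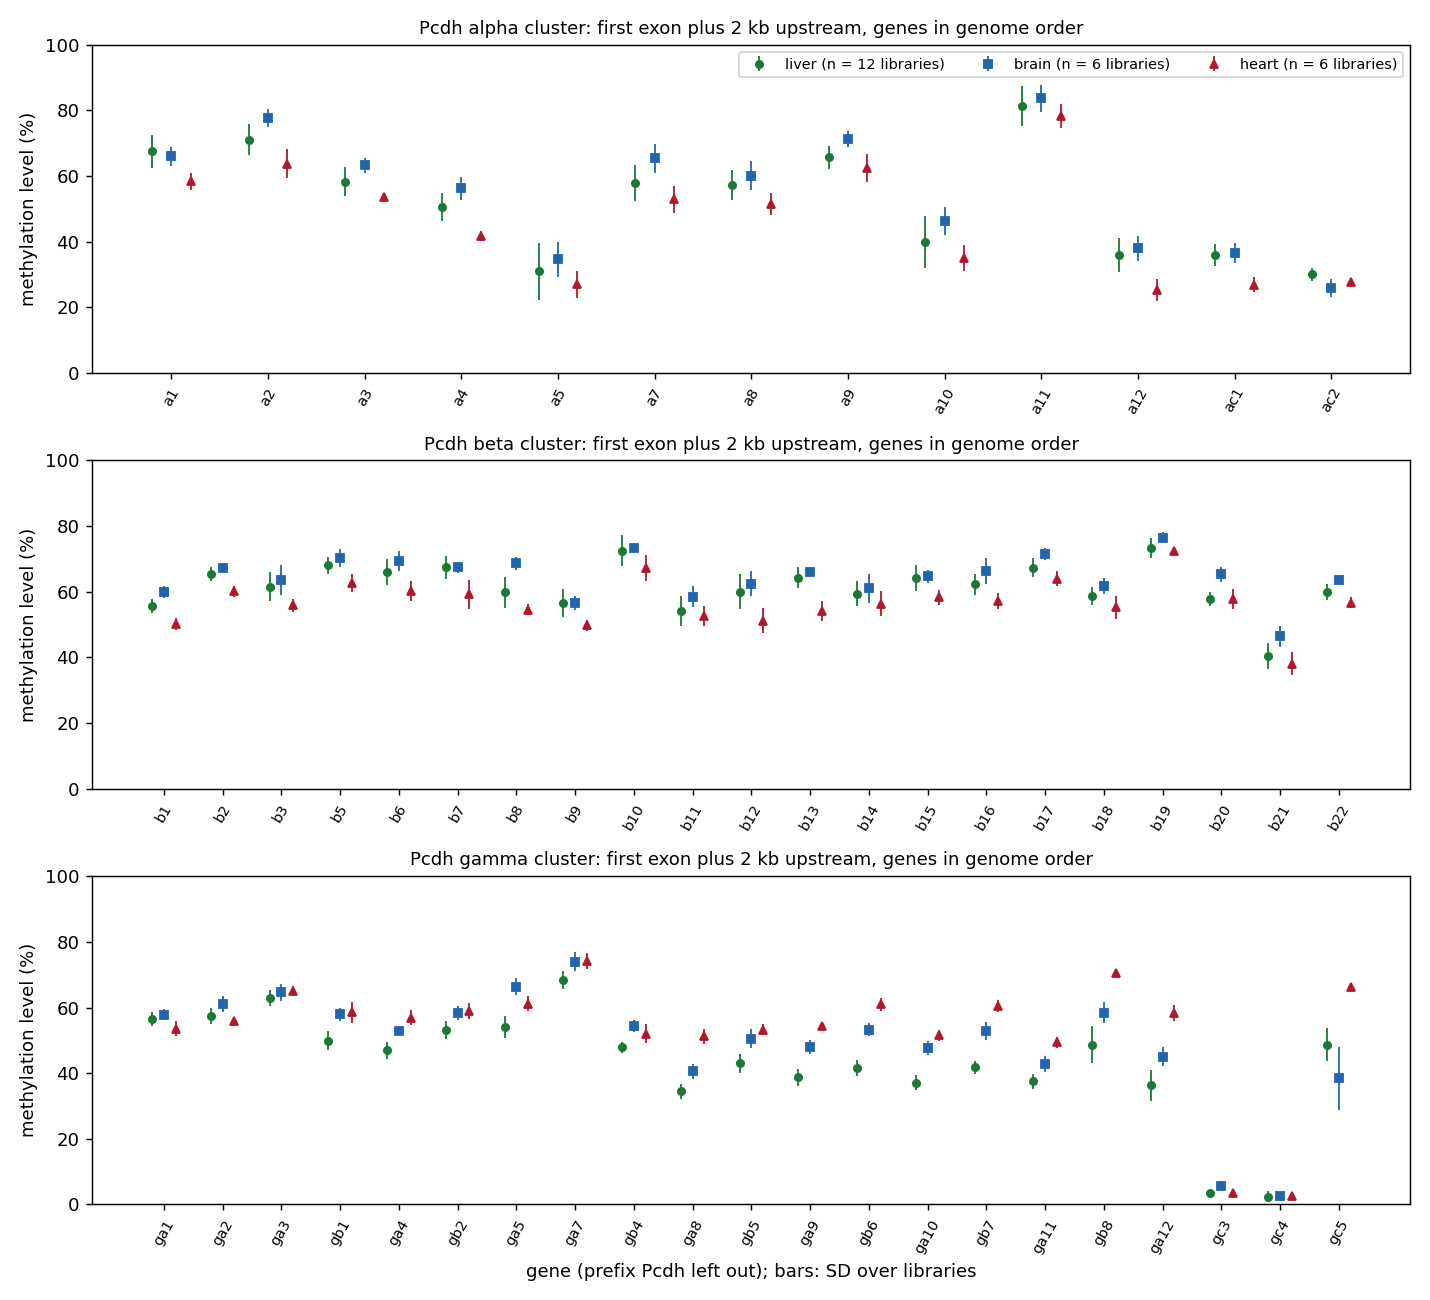
Methylation level (vertical axis, %) of the first exon plus 2000 bp upstream of each measured gene, in genome order along the alpha, beta and gamma clusters (horizontal axis), in liver (12 libraries), brain (6) and heart (6). Points are means and bars are the SD over libraries. Heart is lowest in alpha and beta genes, with Pcdhac2 and Pcdhb20 as exceptions, and liver is lowest from Pcdhga3 to Pcdhga12.

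Single genes were tested with limma over all 15020 measured regions, and a difference was called at a Benjamini-Hochberg adjusted p of 0.01 or less and at least 25 percentage points, the thresholds the study used for tiles. At these thresholds 2.67% of all regions were called between brain and liver, 3.00% between heart and liver and 1.82% between brain and heart. No protocadherin region was called in the first pair or in the second, and 1 was called in the third (Pcdhgc5). At an unadjusted p under 0.05 in limma, with no minimum difference, 35, 42 and 45 of the 55 regions passed in the 3 pairs in the same order, against 7261, 7470 and 5744 of the 15020 regions. With a minimum of 10 points, 5 of the 55 regions were past the threshold between brain and liver (9.78% of all regions), 12 between heart and liver (11.6%) and 11 between brain and heart (9.75%). The median difference over the 55 regions was 4.12 points between brain and liver, -3.04 between heart and liver and 6.46 between brain and heart, against -0.37, -0.54 and 0.04 over all regions.

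The direction of the differences past 10 points differed between the clusters. Higher levels in heart than in liver were past 10 points in 10 members (18.2%, against 3.12% of all regions). Of these, 9 were gamma A and B genes and 1 was Pcdhgc5. Lower levels in heart were past 10 points in 2 members, Pcdha12 and Pcdhb13 (3.64%, against 8.44% of all regions). Between brain and heart, 7 members, 4 alpha and 3 beta genes, were higher in brain (12.7%, against 8.46% of all regions). Lower in brain than in heart were 4 members, all in the gamma cluster (7.27%, against 1.28% of all regions). Between brain and liver, 4 gamma A and B genes were higher in brain (7.27% of the members, against 5.43% of all regions). Pcdhgc5 was lower (1.82%, against 4.35%). Of these 28 differences, 5 fell short in at least 1 alternative: Pcdhgc5 and Pcdhga10 between brain and liver, the latter with 5.98 points against 10.5 when all tiles of each tissue were used, Pcdhb12 between brain and heart (7.65 points with 1000 bp upstream, limma adjusted p = 0.124), and, by less than 1 point, Pcdha12 and Pcdhb13 between heart and liver.

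In the alpha cluster, whose proteins are known for their part in the sorting of axons, brain was above heart in 11 of 11 genes, by 5.35 to 14.4 points. The share of all regions with this direction is not given here, and heart was also below brain over all tiles. Pcdha4 had a lowest, median and highest level of 39.9, 51.6 and 56.8% in liver, 52.1, 55.5 and 61.9% in brain, and 39.0, 42.0 and 43.1% in heart. Every brain library was above every heart library, while liver overlapped both. The difference between brain and heart was 14.4 points (SE 2.05, limma adjusted p = 3.71e-06). The corresponding difference was 14.0 points for Pcdha2 (SE 2.39, limma adjusted p = 4.52e-05), 12.8 for Pcdha12 (SE 2.49, limma adjusted p = 0.000209) and 12.6 for Pcdha7 (SE 2.74, limma adjusted p = 0.000726). Pcdha12, which had the lowest alpha level in heart at 25.2% ± 3.29 (n = 6), was also lower in heart than in liver, by 10.7 points (SE 2.15, limma adjusted p = 0.000192). Next in size between heart and liver were Pcdha1 with -9.10 points (limma adjusted p = 0.000527) and Pcdha4 with -8.80 points (limma adjusted p = 0.000193), both short of 10 points.

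The levels of alpha genes ranged widely within a tissue. Pcdha11 was the highest in each tissue, with 81.3% in liver, 83.7% in brain and 78.3% in heart, but is represented by a single tile with 5 CpGs. Pcdha5 was the lowest in liver, with 30.9% ± 8.64 (n = 12), and in brain, with 34.6% ± 5.34 (n = 6), and rests on 2 tiles. No alpha region passed 10 points between brain and liver, where the largest difference was 7.62 points for Pcdha7 (SE 2.37, limma adjusted p = 0.0107), not called. Next in size were Pcdha2 with 6.62 points (adjusted p = 0.011) and Pcdha10 with 6.51 points (adjusted p = 0.0912), not called either.

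The beta genes followed the order of the alpha genes. Brain was above heart in 21 of 21 genes, by 4.20 to 14.2 points, and heart was below liver in 20 of 21, with the same level in both tissues in Pcdhb20 (57.7%). The share of all regions with these directions is not given here. Over all tiles heart was lowest too, at 59.8% against 65.3% in liver and 65.2% in brain. Pcdhb13 had 64.2% ± 3.25 in liver, 65.9% ± 1.49 in brain and 54.1% ± 3.07 in heart. The heart libraries (50.1 to 57.2%) lay below all liver (58.6 to 71.0%) and all brain libraries (64.8 to 68.5%). The difference between heart and liver was -10.1 points (SE 1.44, limma adjusted p = 2e-06), and that between brain and heart was 11.8 points (SE 1.66, limma adjusted p = 3.21e-06). Past 10 points between brain and heart were also Pcdhb8 with 14.2 points (SE 2.07, limma adjusted p = 5.17e-06) and Pcdhb12 with 11.3 points (SE 2.59, limma adjusted p = 0.00122). Pcdhb8, with 2 tiles, had the largest difference between brain and liver, 8.86 points (SE 1.79, limma adjusted p = 0.000207), which did not reach 10 points, followed by Pcdhb20 with 7.60 points (SE 1.26, limma adjusted p = 1.8e-05) and Pcdhb21 with 5.94 points (SE 1.77, limma adjusted p = 0.00768). Between heart and liver, Pcdhb12 with -8.78 points (limma adjusted p = 0.00212) and Pcdhb7 with -8.18 points (limma adjusted p = 0.000242) came after Pcdhb13, both short of 10 points. Pcdhb19 was the highest beta gene in each tissue (73.4% in liver, 76.5% in brain and 72.3% in heart) and Pcdhb21 the lowest (40.5%, 46.4% and 38.1%).

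The gamma A and B genes differed most between heart and liver, and more so towards the downstream end of the cluster. The first gene, Pcdhga1 (first exon at 37661775 to 37664365), had 56.6% ± 2.16 in liver and 53.6% ± 2.39 in heart, a difference of -3.04 points that was not called (SE 1.11, limma adjusted p = 0.0272). The last, Pcdhga12 (37765580 to 37768540), had 36.3% ± 4.65 and 58.3% ± 2.40, a difference of 22.1 points (SE 1.84, limma adjusted p = 2.6e-10). Over the first 9 genes, from Pcdhga1 to Pcdhgb4, the mean difference was 4.35 points and ranged from -3.04 to 9.96. Over the last 9, from Pcdhga8 to Pcdhga12, it was 16.8 points and ranged from 10.2 to 22.1.

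Between these sets of genes, the mean liver level differed more than the mean heart level. Levels of different genes rest on tiles at differing positions in the exon, which were not matched. Which tissue carries the pattern was thus not tested. The mean liver level was 55.2% in the first 9 genes and 39.9% in the last 9, while the heart level was 59.6% and 56.7%. The brain level was 60.8% in the first 9 genes, above both other tissues, and 48.8% in the last 9, between them. Across the 18 genes the difference between heart and liver correlated with the position in the cluster (Pearson's r = 0.87, Spearman's rho = 0.88). The liver level did so negatively (r = -0.69, rho = -0.73), as did the brain level (r = -0.55, rho = -0.57), and the heart level hardly at all (r = -0.02, rho = -0.09). These correlations are across neighbouring genes of the same libraries, which are not independent, and some neighbours share tiles. The correlations of the levels also depend on the tile positions. The corresponding r for the difference between heart and liver was 0.22 over 11 alpha genes (rho = 0.27) and 0.45 over 21 beta genes (rho = 0.58).

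**Figure D4:**
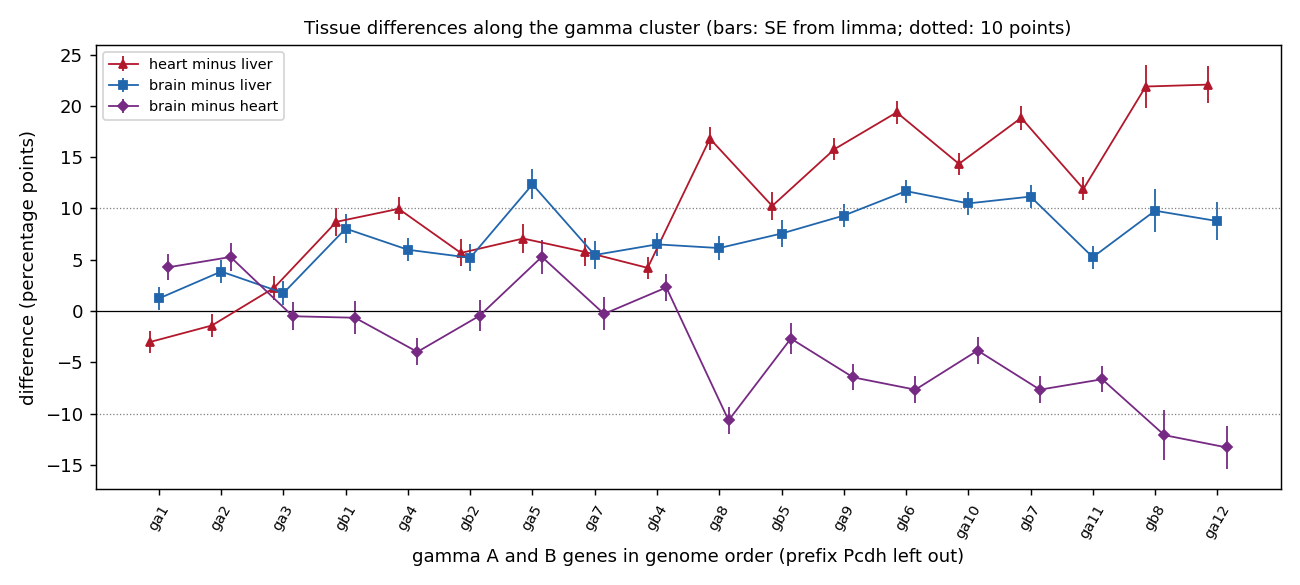
Difference in methylation level (vertical axis, percentage points) between tissues for the 18 measured gamma A and B genes in genome order (horizontal axis), with the SE from limma as bars and dotted lines at 10 points on either side of 0. Heart minus liver is -3.04 points at Pcdhga1 and 22.1 at Pcdhga12, and brain minus heart is 4.26 and -13.3 at these genes. The rise of heart minus liver is not steady. It is 4.20 points at Pcdhgb4, 16.8 at the next gene, Pcdhga8, and 11.9 at Pcdhga11.

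Pcdhga12 had levels of 28.6, 37.5 and 43.8% in liver (lowest, median and highest), 42.8, 44.2 and 50.5% in brain and 56.3, 57.2 and 62.0% in heart. Heart stood apart from both other tissues, and liver and brain overlapped only at the highest liver library. Of its 6 tiles, 3 lie in the first exon of the gene before it, Pcdhgb8. Without these, the difference between heart and liver was 26.6 points and was called. Pcdhgb8, which is annotated as a transcribed pseudogene, had 36.6, 49.3 and 55.7% in liver, 52.9, 59.3 and 61.8% in brain and 69.2, 70.4 and 71.9% in heart. Its heart level was above liver by 21.9 points (SE 2.11, limma adjusted p = 3.7e-09) and above brain by 12.1 points (SE 2.44, limma adjusted p = 0.000314).

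The third-largest difference between heart and liver was that of Pcdhgb6, with 41.6% ± 2.34 in liver, 53.3% ± 1.89 in brain and 60.9% ± 2.13 in heart, and no overlap between any of the tissues. Heart was above liver by 19.4 points (SE 1.13, limma adjusted p = 3.03e-13) and brain above liver by 11.7 points (SE 1.13, limma adjusted p = 3.27e-09). Brain was above liver most in Pcdhga5, at 66.4% ± 2.51 against 54.1% ± 3.31, by 12.3 points (SE 1.45, limma adjusted p = 1.05e-07). Next were Pcdhgb6, with the value above, and then Pcdhgb7 with 11.2 points (SE 1.13, limma adjusted p = 8.46e-09). Brain was below heart most in Pcdhga12, by 13.3 points (SE 2.12, limma adjusted p = 1.86e-05), then Pcdhgb8 and Pcdhga8, by 10.7 points (SE 1.33, limma adjusted p = 5.38e-07). The highest gamma A and B level was that of Pcdhga7 in each tissue (68.4%, 73.9% and 74.2% in liver, brain and heart). The lowest was that of Pcdhga8 in liver (34.4%) and brain (40.6%), and that of Pcdhga11 in heart (49.5%).

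The variable exons of neighbouring genes resemble each other, and the sources used here do not give the treatment of reads that match more than 1 place. After conversion of C to T or of G to A, more than 50% of the 31-base stretches of 71 protocadherin tiles (16.0%) had another copy in the clusters, with 15 alpha, 29 beta, 27 gamma A and B and 0 C type tiles. Without these tiles the order of the tissues was the same in each of the alpha, beta and gamma A and B groups. The mean difference between heart and liver was then 4.40 points over the first 9 gamma A and B genes and 17.1 over the last 9.

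Of the 5 C type genes, Pcdhgc3 and Pcdhgc4 were close to unmethylated and the other 3 were partly methylated. Pcdhgc3 (first exon at 37806410 to 37808977), the gamma gene known to be expressed widely outside the brain, had 3.56% ± 0.734 in liver, 5.52% ± 0.817 in brain and 3.43% ± 0.419 in heart over 19 tiles. Its tiles stayed at or under 5.8% in each tissue up to 1040 bp after the start. At 1540 bp, brain had 16.3% against 4.6% in liver and 10.9% in heart. Over the whole region brain was above liver by 1.96 points (SE 0.352, limma adjusted p = 5.19e-05) and above heart by 2.09 points (SE 0.407, limma adjusted p = 0.000213), far under the 10 points. Pcdhgc4 had 2.40% ± 1.64 in liver, 2.57% ± 0.722 in brain and 2.64% ± 0.765 in heart over 8 tiles, with limma adjusted p from 0.792 to 0.965 for its differences.

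Pcdhac2 (37143678 to 37146530) changed steeply within its exon in each tissue. Its first 8 tiles, up to 872 bp from the start, had 0.4 to 6.9%, and the tiles from 1272 bp onwards had 39.7 to 91.7%. Over the region, brain was below liver by 4.29 points (SE 1.01, limma adjusted p = 0.00103), with 25.8% ± 2.75 against 30.1% ± 1.99, and heart, with 27.7% ± 0.878, differed from liver by -2.43 points (SE 1.01, limma adjusted p = 0.0531).

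Pcdhac1 (37090136 to 37092571) had 35.9% ± 3.35 in liver, 36.6% ± 3.08 in brain and 26.9% ± 2.41 in heart. Heart was below liver by 9.0 points (SE 1.49, limma adjusted p = 1.76e-05) and below brain by 9.67 points (SE 1.73, limma adjusted p = 7.62e-05), both short of 10 points. The similar means of liver and brain hide differences of opposite sign along the exon. At 414 bp from the start brain had 30.6% and liver 61.5% (tile called, limma adjusted p = 1.9e-09). From 714 bp onwards each tile was highest in brain, with 60.9% in brain, 37.8% in liver and 28.9% in heart at 1914 bp (called between brain and heart, limma adjusted p = 8.4e-09). At 2014 bp the levels were 76.4%, 59.8% and 32.8%, and heart was called below both other tissues.

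Pcdhgc5 (37819546 to 37822134), the last variable exon of the gamma cluster, was the only protocadherin region called at 25 points. Its levels in the 6 brain libraries were 46.5, 28.8, 44.0, 44.4, 43.3 and 23.6%, in heart they ran from 64.8 to 66.8% with a median of 66.3%, and in liver from 41.5 to 57.6% with a median of 46.8%. Heart lay above all other libraries, while 4 brain libraries fell in the liver range and 2 far below it. Brain was below heart by 27.7 points (SE 3.24, limma adjusted p = 2.16e-07), heart above liver by 17.4 points (SE 2.81, limma adjusted p = 1.21e-05), and brain below liver by 10.2 points (SE 2.81, limma adjusted p = 0.00412).

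Brain libraries 2 and 6 were the lowest pair in 9 of the 11 tiles of Pcdhgc5. Over all tiles, these 2 libraries had the highest mean levels of the brain libraries, at 65.8 and 66.4%. Without them brain had 44.6% ± 1.36 (n = 4), the difference between brain and heart was -21.6 points (SE 2.37, limma adjusted p = 2.16e-07), no longer past 25 points, and that between brain and liver was -4.13 points (SE 2.12, limma adjusted p = 0.141). Over the marker lists, the same 2 libraries were the lowest brain pair in 3 of 7 neuronal, 1 of 6 heart muscle and 1 of 1 leukocyte genes, and the highest pair in 3 of 3 hepatocyte, 1 of 6 glial and 1 of 4 endothelial genes. They stood at opposite ends in the endothelial gene Tek, with 61.1 and 34.3%, the highest and the lowest brain level. The part of tissue composition in this result was not tested. Along the exon, with libraries 2 and 6 included, brain was lowest up to 2304 bp from the start, with 33.8% against 64.8% in liver and 75.9% in heart at 504 bp. At 2504 bp heart stood out, with 73.2% against 36.0% in brain and 28.4% in liver.

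**Figure D5:**
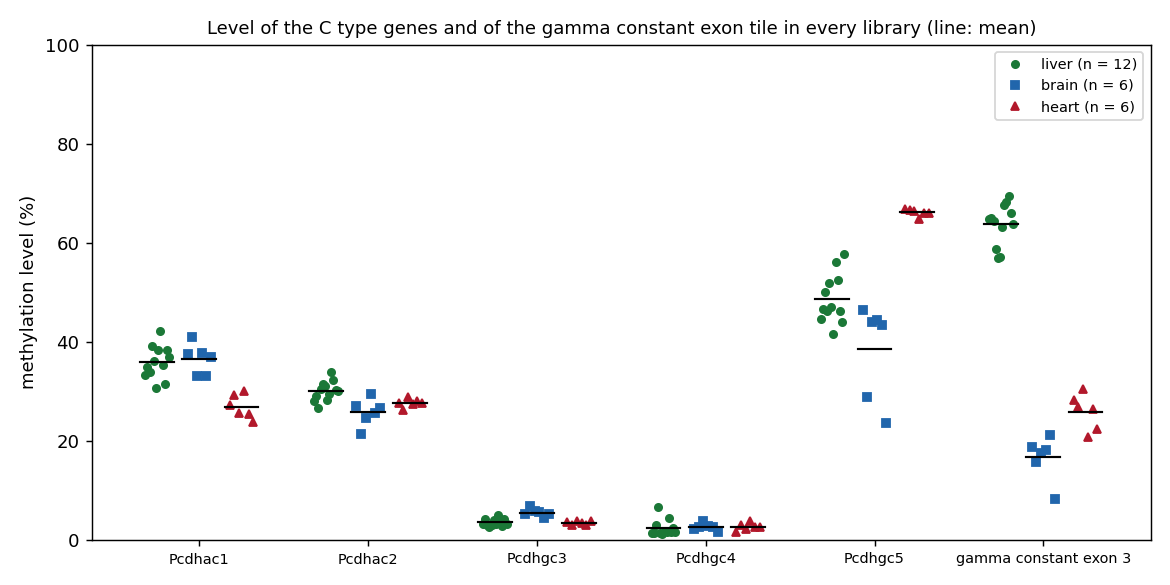
Methylation level (vertical axis, %) of the 5 C type genes and of the gamma constant exon tile in each of 12 liver, 6 brain and 6 heart libraries (points), with the mean as a line. Pcdhgc3 and Pcdhgc4 lie under 7% in all libraries, 2 brain libraries of Pcdhgc5 lie at 23.6 and 28.8%, and in the constant tile all liver libraries lie above all others.

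By single tiles, 3 of the 445 were called between brain and liver (9.80% of all tiles), 20 between heart and liver (10.8%) and 10 between brain and heart (9.46%). Together these were 29 tiles of 11 genes, 16 of them in 9 gamma A and B genes and 13 in Pcdhac1 and Pcdhgc5. None was in an alpha or beta gene outside the C types. All 16 gamma A and B tiles were higher in heart than in liver. A tile of Pcdhgb7 at 1331 bp from the start was also called between brain and liver, with 41.9% in liver, 74.7% in brain and 80.4% in heart. In Pcdhga9 the called tiles lay nearer to the start, with 27.1% in liver, 41.9% in brain and 59.5% in heart at 514 bp.

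Of the constant exons, 5 tiles of the alpha and 1 of the gamma cluster were measured. The 5 alpha tiles had 73.3% ± 5.28 in liver, 78.1% ± 1.23 in brain and 70.9% ± 1.68 in heart, and none was called. The nearest was a tile of exon 3 from 37185001 to 37185100, with 35.8% in liver and 60.5% in brain, a difference of 24.7 points that fell short of the threshold (limma adjusted p = 0.00372). The gamma tile, from 37841801 to 37841900 across the end of exon 3, holds 3 CpGs. It had 56.9 to 69.4% in liver (median 64.6%), while the brain libraries had 18.8, 15.8, 17.5, 18.2, 21.2 and 8.3% and the heart libraries 28.2, 26.9, 30.5, 20.7, 26.4 and 22.3%. Liver lay above all other libraries. Brain was below liver by 47.1 points (SE 2.39, limma adjusted p = 8.67e-15) and heart by 37.9 points (SE 2.39, limma adjusted p = 8.36e-13). The difference of -9.20 points between brain and heart was under the 25 points (limma adjusted p = 0.00844). In the gamma A and B variable exons as a group, by contrast, liver had the lowest level.

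Of 24 genes within 300 kb of the clusters, 22 were measured at their own starts, and 2 of these, Gm37013 and Gm38667, start in the same exons as Pcdha4 and Pcdha7 and have their values. Taf7, which lies between the beta and gamma clusters and encodes a subunit of the general transcription factor TFIID, had 1.4% in liver, 1.2% in brain and 0.9% in heart. Slc25a2, an intronless mitochondrial carrier gene, had 95.7%, 95.3% and 93.9%. At 25 points, 3 neighbours were called, all upstream of the alpha cluster. Eif4ebp3, a regulator of translation, had 24.0% ± 6.1 in liver, 76.8% ± 4.7 in brain and 70.4% ± 2.4 in heart over 2 tiles, and liver was called below both. E230025N22Rik, also with 2 tiles, had 75.3% ± 4.1, 45.1% ± 4.2 and 44.4% ± 6.1, and liver was called above both. Cd14, the lipopolysaccharide co-receptor of monocytes, had 25.8% ± 5.9, 53.7% ± 6.1 and 26.6% ± 9.1 in its single tile, and brain was called above both.

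Genes of the same family and of the same pathway were compared at their own starts. Of 8 measured protocadherins outside the clusters, 7 had levels of 0.7 to 8.2% in every tissue. The exception was Pcdh12, known as an endothelial protocadherin, with 73.6% ± 3.5 in liver, 74.6% ± 5.1 in brain and 39.2% ± 2.2 in heart, which was called lower in heart than in liver by 34.4 points (SE 1.81, limma adjusted p = 4.07e-14). Of 17 measured regulators of the clusters, 11 signalling partners and 16 other cadherins, 0 were past 10 or 25 points in limma in any pair of tissues. At an unadjusted p under 0.05 with no minimum difference, 5 of these regulators, 7 partners and 11 cadherins passed between brain and liver, 5, 2 and 10 between heart and liver, and 2, 5 and 9 between brain and heart, against the counts over all regions given above. Ctcf, which encodes the DNA-binding protein of the protocadherin promoters, had 1.2% in liver, 0.9% in brain and 1.0% in heart. Setdb1, the histone methyltransferase known to silence these clusters in neurons, had 50.03%, 48.2% and 43.4%.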

How the data were processed

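Methylation was measured by enhanced RRBS in 24 libraries. Library preparation, sequencing and mapping were done by a sequencing service. Per the labels, Bismark and methylKit were used, with mm10. The authors computed levels in tiles of 100 bp, kept tiles with more than 10 reads in all libraries of a tissue and below an upper coverage limit, and deposited a table per tissue with each level as a fraction. No read counts or coverage are in these tables. The depth behind each level is thus unknown beyond that minimum, and no interval is given.

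Here, tiles with at least 1 CpG in mm10 that were present in all 3 tables were used (757807). A gene's region was its first exon (RefSeq transcript with the most upstream start) plus 2000 bp upstream, and its level was the mean of its tiles. Tissues were compared with limma 3.58.1 (R 4.3.3; moderated test with a mean-variance trend, all 24 libraries in the fit), with Benjamini-Hochberg adjustment over all regions or all tiles. The fit was tested on simulated data. Calls needed an adjusted p of 0.01 and 25 points. The members, gene lists and tests were chosen with earlier results of these data known. Named were, per cluster and pair of tissues, the 3 genes with the largest differences, the highest and lowest gene per tissue, all C type genes, called genes of the lists and called neighbours. Further tiles, Taf7, Slc25a2, Ctcf, Setdb1, Pcdhga10, Camk2a, Rbfox3, Stmn2, Tek, Mbp, Olig1, Gfap, Slc1a2, Olig2 and Cdh5 were named after their values were seen.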

Additional observations from a re-analysis of the deposited data

Results flagged for a closer look

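In 8 of 124 groups of 6 libraries tested for a single distant value with Dixon's test, 1 brain library lay far from the other 5, and chance alone flags about 1 in 20 groups. All 8 were in brain and 0 in heart, and groups of 12 liver libraries were not tested. The values were 44.6% for Pcdha5 and 65.8% for Pcdhga2 in brain library 6, 54.7% for Pcdha10 in library 2, 47.6% for Pcdhga11 in library 1, 67.8% for Pcdhb17 in library 3, 50.5% for Pcdhga12 in library 4, and 70.6% for Pcdhb7 and 54.3% for Pcdhgb2 in library 5. Each of the 6 brain libraries was concerned at least once.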

How the results depend on the processing

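No paired analysis was possible because the columns of levels carry no mouse number. The counts of regions called at 25 points (0, 0 and 1 for brain against liver, heart against liver and brain against heart) were 5, 12 and 11 at 10 points, and those of tiles (3, 20 and 10) were 65, 108 and 89. With 1000 bp upstream, and, in an alternative added after seeing the data, without tiles in another gene's exon, 1 region was called between heart and liver, Pcdhga12 with 26.6 points in both. Without brain libraries 2 and 6, also added later, 0 regions were called between brain and heart. Without multi-copy tiles, added later too, the liver, brain and heart levels were 60.6, 64.1 and 53.5% for alpha, 64.0, 66.8 and 59.1% for beta, and 48.5, 55.6 and 57.8% for gamma A and B genes. With 1000 bp upstream they were 45.2, 52.1 and 55.3% for gamma A and B, and 61.5% for beta in liver. As averages over genes, heart had 57.8% in gamma A and B and 25.3% in C types. With all tiles of each table, heart had 48.2% in alpha, 26.1% in C types and 68.8% in constant alpha exons, and brain 75.8% in the latter. The remaining 86 summary values stayed within the spread between libraries or within 1.5 times the count, and 193 differences of single genes kept their direction and side of the 25-point threshold. The exceptions were 2 of Pcdhga12 (26.6 points) and 1 of Pcdhgc5 (-21.6 points without brain libraries 2 and 6), and none of these differences reversed. Of the 28 differences past 10 points, 23 stayed past it in each of the 7 alternatives that refit the regions. Lost were Pcdhga10 between brain and liver (5.98 points with all tiles, 9.50 with 1000 bp upstream, 9.67 without brain libraries 2 and 6), Pcdhgc5 in this pair (adjusted p = 0.0126 with 2 tissues, -9.89 points when centred, -4.13 without those libraries), Pcdhb12 between brain and heart (7.65 points with 1000 bp upstream), and, between heart and liver, Pcdhb13 (-9.43 points with all tiles, -9.17 when centred) and Pcdha12 (-9.73 when centred). Other alternatives run were the logit scale, fits of only 2 tissues, at least 3 CpGs per tile and, added later, libraries centred on their median.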
